A study of Mus musculus with 4 samples.

Results

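The genes described here encode the extracellular matrix of the hippocampal CA1 field, the integrins that bind it and the proteases that cut it. They were taken by name: every probe set with a single gene symbol for a collagen, laminin, integrin, matrix metalloproteinase (MMP), TIMP, ADAM, thrombospondin, fibulin or fibrillin, plus Dcn, Bgn, Sparc, Fn1, Tnc, Bcan, Ncan and Vcan. That gave 107 genes through 156 probe sets, of 8251 genes and 10833 probe sets with a single symbol. The samples are total RNA from CA1 of control mice: C57BL/6J males, young (no age is stated), handled by the experimenter and left otherwise untreated. They form 4 groups of 1 array each, with RNA taken 1, 2, 4 or 6 hr after other mice had their last shock. No group has a second array, so no value at a time has a replicate check. The sources used here do not give how many mice an array holds.

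The matrix of brain differs from that of connective tissue. Its bulk is hyaluronan bound by the lecticans Bcan (brevican), Ncan (neurocan) and Vcan (versican) and linked by tenascins, and it condenses around synapses and some neurons as perineuronal nets. Fibrillar collagens, fibronectin and small leucine-rich proteoglycans such as Dcn (decorin) and Bgn (biglycan) build connective tissue and, in brain, lie mostly in the meninges and vessel walls, where laminins and type IV collagen form the basement membrane. Cells hold the matrix through integrins, each an alpha and a beta subunit. MMPs and ADAM proteases cut matrix and surface proteins, and TIMPs inhibit them.

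The values are linear probe intensities scaled by the authors to a common level on each array. Values under a floor of 54.7, their 25th percentile, were raised to it before log2 was taken. A probe set was tested when its mean log2 value lay above the 40th percentile, which corresponds to an intensity of 114. The 4 arrays had median intensities of 173 to 204, and between 23.4% and 28.3% of their values lay under the floor, most on the 2 hr array. All 6 CA1 pyramidal neuron markers with a probe set passed the filter, among them Wfs1, at 1668 to 2594. The dimmest, Camk2a, read 137 to 161 at 1, 2 and 4 hr and was under the floor at 6 hr. Astrocyte markers passed in 10 of 10 cases and microglial markers in 8 of 11, with summed intensities over the arrays of 25220 to 27270 and 6065 to 6913. Summed inhibitory neuron markers (8 of 9 passed) ranged from 31950 to 36960, and oligodendrocyte markers (7 of 9 passed) from 19960 to 26460, lowest at 6 hr. The oligodendrocyte sum was led by Mobp, at 9821 at 6 hr and 13671 to 14207 before. Of the 9 markers in it 3 were highest at 6 hr. The choroid plexus marker Ttr read 3217 at 4 hr and 140 to 196 on the other arrays, a gene at its highest in choroid plexus. In such bulk tissue, fewer cells of a type and less RNA per cell cannot be told apart.

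The start regions of the brain matrix genes are shown because these 4 genes are compared with connective tissue genes below, and that of Col3a1 because 2 of its probe sets read highest on 1 array. RefSeq promoter sequences (GRCm38.p6) were found for 70 of the 107 genes. The 250 bases before the start are given 5′ to 3′ on the gene's own strand, and capitals mark matches on either strand to the GC box GGGCGG, the CCAAT box CCAAT, the TATA box TATAAA or the AP-1 site TGANTCA.
Bcan: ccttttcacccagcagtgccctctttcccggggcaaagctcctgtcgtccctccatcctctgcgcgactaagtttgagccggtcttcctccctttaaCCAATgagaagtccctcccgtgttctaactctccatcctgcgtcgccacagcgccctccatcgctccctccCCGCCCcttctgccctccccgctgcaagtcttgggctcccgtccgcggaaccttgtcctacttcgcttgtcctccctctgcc
Ncan: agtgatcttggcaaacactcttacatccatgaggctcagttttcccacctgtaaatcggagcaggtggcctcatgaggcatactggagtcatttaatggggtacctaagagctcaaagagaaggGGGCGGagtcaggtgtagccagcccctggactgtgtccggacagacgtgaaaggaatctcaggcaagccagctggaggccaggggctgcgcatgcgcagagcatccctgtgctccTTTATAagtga
Vcan: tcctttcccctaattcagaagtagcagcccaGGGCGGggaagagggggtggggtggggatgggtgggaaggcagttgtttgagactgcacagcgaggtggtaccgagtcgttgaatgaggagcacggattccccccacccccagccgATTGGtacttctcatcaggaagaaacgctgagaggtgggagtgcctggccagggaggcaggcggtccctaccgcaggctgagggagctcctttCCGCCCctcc
Tnc: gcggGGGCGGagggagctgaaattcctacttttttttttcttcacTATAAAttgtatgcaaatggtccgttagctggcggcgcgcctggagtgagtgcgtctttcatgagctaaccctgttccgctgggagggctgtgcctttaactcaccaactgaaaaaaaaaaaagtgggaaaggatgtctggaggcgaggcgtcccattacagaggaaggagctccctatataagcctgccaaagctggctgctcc
Col3a1: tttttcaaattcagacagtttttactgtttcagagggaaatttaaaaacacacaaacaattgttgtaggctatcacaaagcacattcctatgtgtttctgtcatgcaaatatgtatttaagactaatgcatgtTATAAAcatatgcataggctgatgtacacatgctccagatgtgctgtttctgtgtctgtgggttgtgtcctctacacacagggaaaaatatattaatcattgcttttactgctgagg

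They lie at chr3:88000357-88000606 (Bcan), chr8:70120845-70121094 (Ncan), chr13:89742513-89742762 (Vcan) and chr4:64046937-64047186 (Tnc), all on the minus strand, and at chr1:45311288-45311537 (Col3a1), on the plus strand. For Tnc the table gives more than 1 start, and the one of lower coordinate was used. A GC box was found in 4 of 4 brain matrix promoters, in 8 of 14 of connective tissue genes and in 36 of 70 members (51.4%), beside 32.7% of 27025 promoters of the same length. The Col3a1 window held none and had 35.2% G and C, against 62.0% for Bcan. The median share of G and C was 57.4% over the 70 members and 52.0% over all promoters. Match counts were not adjusted for this share. An AP-1 match was found in 6 members (8.57%, beside 6.87% of all promoters), and 4 of these are MMPs (Mmp3, Mmp7, Mmp10 and Mmp13), of 9 with a sequence. The CCAAT box was in 21 of 70 members, beside 34.2% of all promoters, and the TATA box in 13 of 70, beside 12.9%. A match is a description of letters, and no printed matches share a base.

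Of the 107 genes, 57 (53.3%) had a probe set that passed the filter, beside 68.8% of all named genes. The brain matrix genes passed in 4 of 4 cases and the TIMPs in 3 of 3. Connective tissue genes passed in 16 of 23, basement membrane genes in 8 of 17, integrin alpha subunits in 5 of 12 and beta subunits in 4 of 7. ADAM genes passed in 9 of 17 and MMPs in 3 of 13. Neither transmembrane collagen (Col13a1, Col17a1) passed, nor did Adamts1, a secreted protease. On every array all probe sets of 13 genes (12.1%) lay at or under the floor, beside 7.76% of all named genes, and 5 of the 13 are MMPs: Mmp3, Mmp7, Mmp8, Mmp10 and Mmp24. Without the 1 hr array that count was 20. No detection calls were used, so a dim probe set may have been measured or not, and levels of different probe sets are not compared.

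**Figure D1:**
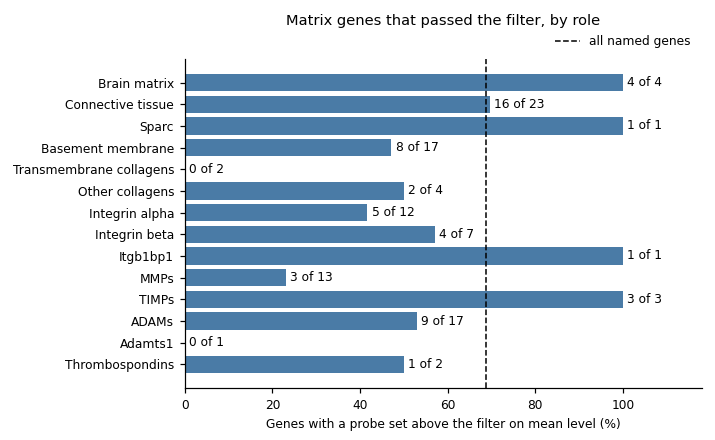
Share of genes in each role with at least 1 probe set above the filter on mean level (horizontal axis, percent), with counts beside the bars and a dashed line for all named genes (68.8%). Brain matrix genes (4 of 4) and TIMPs (3 of 3) lie above the line, and MMPs (3 of 13) have the shortest bar among the roles with any tested gene.

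No member was called for a straight-line change over the 4 times. The limma test, with Benjamini-Hochberg adjustment over all tested probe sets, called 0 of the 69 of members, beside 0% of 7453. An unadjusted p under 0.05 was reached by 3 member probe sets (4.35%, beside 5.13% of all), those of Vcan, Lama1 and Col9a1. Ordinary least squares also gave 0 calls and 3 at an unadjusted p under 0.05, as did a robust prior. Vcan had the smallest adjusted p among members, 0.889 by limma, and its log2 value sloped by 0.44 ± 0.135 per hr (SE). With 1 array at each time, the p-values reflect only how these 4 arrays scatter about a line. Limma estimates that scatter in part from all tested probe sets. Differences between mice, technical differences and changes over time that do not follow a line cannot be told apart in it.

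Among the brain matrix genes Ncan varied least and Vcan most. Brevican, the most abundant lectican of adult brain, read 1414, 1247, 1844 and 1347 at 1, 2, 4 and 6 hr, a 1.48-fold range in no order of time. A second Bcan probe set lay below the filter, at 60.2 to 249. For neurocan, a lectican of neurons and glia, the main probe set read 364, 326, 327 and 389, a 1.19-fold range. The second Ncan probe set read 190.2, 173, 201 and 136, lowest at 6 hr where the first was highest. Versican, a lectican also found in vessels and glial progenitors, was under the floor at 1 hr and read 130.0, 323 and 255 at 2, 4 and 6 hr, at least a 5.91-fold range through its single probe set. Tnc, tenascin C, read 166, 134.5, 82.9 and 92.4, the opposite order, with both later arrays below both earlier ones. Its second probe set was under the floor on every array.

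Of the fully named connective tissue genes, fibronectin was the most even and decorin varied more. Fn1 read 689, 765, 707 and 784, a 1.14-fold range, the narrowest of all 69 tested member probe sets. Dcn, which binds collagen fibrils, read 2882, 3935, 2161 and 3289.7, highest at 2 hr and lowest at 4 hr. Bgn read 516, 347, 542 and 578 through one probe set, lowest at 2 hr, and 453, 363, 318 and 334 through the other, highest at 1 hr. The 2 Bgn probe sets thus went opposite ways between the earlier and later arrays. Sparc, a secreted collagen-binding protein made by brain glia and endothelium, read 897, 707, 689 and 697, highest at 1 hr.

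Among fibrillar collagens, Col1a1 and Col1a2, the chains of type I collagen, were both lowest at 2 hr through their tested probe sets. Col1a1 read 558, 335, 514 and 558, and Col1a2 read 2842, 2290.0, 3097 and 2765. A second probe set of each lay below the filter. That of Col1a2 was above the floor only at 2 hr, the array where the tested one was lowest, and the tested one carries the array maker's suffix r_at, given to probe sets that break some of its selection rules. Col11a1, a minor fibrillar chain, had the widest range of the tested connective tissue probe sets: it read 245, 115, 71.0 and 126, a 3.45-fold range with its peak at 1 hr. Type IX collagen coats fibrils, and its 3 chains did not move as 1. Col9a1 read 212, 313, 491 and 453.5, both later arrays above both earlier ones. Col9a2 read 553, 461, 359.9 and 587, lowest where Col9a1 was highest, and Col9a3 read 439.5, 304, 558 and 433. Fibulins bind elastic fibres and basement membranes. Fbln2 read 199, 213, 346 and 302, higher on both later arrays, whereas the 2 tested Fbln1 probe sets read 567.5, 479, 419.7 and 583, and 792, 342, 598 and 511. The other tested members (Col5a1, Col6a1, Col6a2 and Col14a1) had ranges of 1.36- to 2.50-fold.

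Col9a1 and Fbln2 each had both later arrays above both earlier ones, as had Vcan, and the 4 hr array, highest for all 3, was the one with the high Ttr reading. Other genes went the other way: of the 16 tested connective tissue genes 6 were highest at 4 hr and 4 lowest, among the latter Dcn. The markers of meningeal fibroblasts, cells that make fibrillar collagen, also had their highest sum at 4 hr (5027, against 3206 to 3672), led by Igf2 at 2564 against 1287.5 to 1492. Of these 11 markers 5 were highest at 4 hr, 4 passed the filter and 2 were at the floor on every array. The other 4 choroid plexus markers with a probe set were highest at 1 hr for Folr1 and Aqp1, at 2 hr for Kl and at 4 hr for Slc4a5. The part of such cells in the member values was not tested. Of these 4, Aqp1 stood above the other arrays at 1 hr, at 317 against 158 or less, and Kl below them, at 54.8 against 247 or more.

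Between earlier and later arrays the brain matrix and connective tissue lists shifted by nearly the same median amount. The median difference of the mean at 4 and 6 hr from the mean at 1 and 2 hr was 0.15 log2 units over the 4 brain matrix genes and 0.16 over the 16 connective tissue genes, 1 probe set per gene, beside 0.01 over all 5680 tested genes. Both shifts depended on single arrays: without the 2 hr array the medians were 0.06 for brain matrix and -0.009 for connective tissue, and without the 1 hr array 0.23 and 0.37. With all arrays the gap between both medians was -0.01, where the gap between both lists' mean levels had an SD of 0.25 over the arrays. It was -0.11 without Vcan, a choice made after seeing the data. A difference was positive for 3 of 4 brain matrix genes and 13 of 16 connective tissue genes. With 2 arrays against 2, an exact two-sided permutation test cannot go below 0.333, so none is given.

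Array by array, with each gene set to its own 4-array mean, brain matrix genes averaged -0.24, -0.09, 0.21 and 0.11 log2 units at 1, 2, 4 and 6 hr. Connective tissue genes averaged 0.09, -0.29, 0.01 and 0.185. The low brain average at 1 hr came from Vcan: without it the 3 other genes averaged 0.19 at 1 hr and between -0.09 and -0.03 later. The low connective average at 2 hr was shared by many genes, since 9 of the 16 were at their lowest there and 1, Dcn, at its highest. Without Dcn the average at 2 hr was -0.33.

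**Figure D2:**
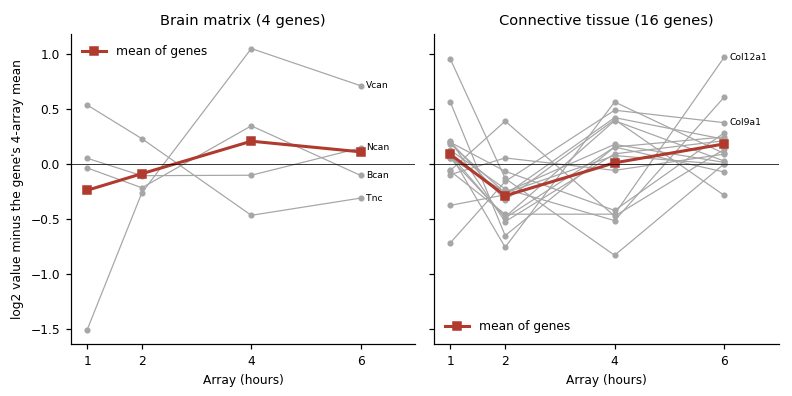
Log2 value of each tested gene minus its own mean over the 4 arrays (vertical axis) against the hour of the array, for 4 brain matrix genes (left) and 16 connective tissue genes (right), values under the floor set to it. Grey lines are genes and red squares their mean, lowest at 1 hr on the left (-0.24) through Vcan and at 2 hr on the right (-0.29).

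A dip on the 2 hr array was also seen over all members, which include the 16 connective tissue genes, but not in every role. Of the 57 tested genes 23 (40.4%) were lowest on that array and 6 (10.5%) highest, where among all tested genes these shares were 27.8% and 26.4%. Few were lowest at 6 hr, 5 of 57 (8.77%) against 22.4% of all genes. The median member lay at -0.21 log2 units from its mean on the other arrays at 2 hr, beside 0.007 for all genes. By role this median ran from -0.61 for integrin alpha subunits to 0.16 for integrin beta subunits. It was -0.36 for connective tissue genes, -0.29 for MMPs, -0.21 for brain matrix and -0.13 for basement membrane genes. ADAMs were at -0.03 and TIMPs at 0.05. When arrays were shifted to a common median, all genes moved to 0.23 and members to 0.03, so the sign turned while members still lay below all genes. Under quantile normalization the values were -0.09 for members and 0.045 for all genes. The 2 hr array had the lowest median intensity and a Gapdh 3′ to 5′ ratio of 7.56, against 4.84 to 6.25 on the others. Its Actb 3′ to 5′ ratio, 3.2, lay within the 2.99 to 3.44 of the others. The part of these in the dip was not tested.

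In the same comparison 38 of the 57 genes were higher on the later arrays and 19 lower, with a median of 0.18 log2 units, beside 2914 higher and 2766 lower of all genes. Without the 2 hr array the split was 30 of 57 and the median 0.04. By role the medians of this difference were 0.34 for basement membrane genes, 0.38 for integrin alpha subunits, 0.18 for ADAMs and 0.20 for TIMPs, and below 0 for MMPs (-0.26) and integrin beta subunits (-0.15). Each rests on 3 to 9 genes, and single arrays moved most of them. The integrin alpha median was -0.14 without the 4 hr array and 0.52 to 0.88 without another, and the TIMP median was -0.36 without 6 hr and 0.02 without 1 hr. Without the 1 hr array the basement membrane median was 0.10. The MMP median was -0.04 without 1 hr and -0.03 without 4 hr, and that of integrin beta subunits -0.02 without 6 hr. The ADAM median stayed between 0.11 and 0.18.

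**Figure D3:**
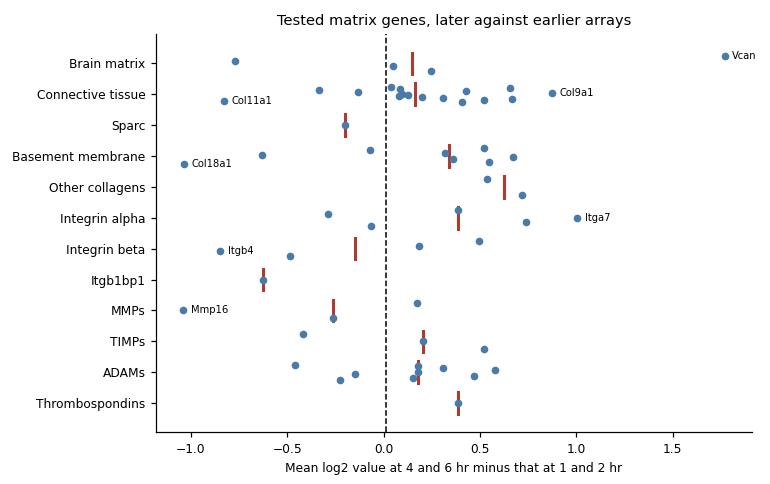
Difference of the mean log2 value at 4 and 6 hr from that at 1 and 2 hr (horizontal axis) for each of the 57 tested genes (points, 1 probe set per gene) by role, with the role's median in red and the median of all tested genes dashed (0.01). Vcan lies farthest right at 1.77, a lower bound because its 1 hr value was at the floor, and Col18a1 and Mmp16 lie farthest left at -1.04.

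Both chains of the common type IV collagen, the network of basement membranes, read higher at 4 and 6 hr than at 1 and 2 hr. Col4a1 read 408, 515, 708 and 634, and Col4a2 read 919, 785.5, 1059 and 1125. Neither was called by limma (adjusted p = 1 for both). Col4a3, Col4a4 and Col4a5, chains of other membranes such as that of the kidney, stayed below the filter. Markers of endothelium, a cell that makes type IV collagen, were mixed in the same difference: 3 of 7 tested ones were higher later and 4 lower (median -0.08 log2 units), from Abcb1a at -1.18 and Cldn5 at -0.83 to Slc2a1 at 0.57. The part of these cells in the collagen values was not tested. Endothelial markers (7 of 10 passed) summed to 2459 to 3024 and mural cell markers (5 of 9 passed) to 1129 to 1432 over the arrays.

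Laminins, the heterotrimers that start basement membrane assembly, differed by chain. Lama1 read 245, 231, 193 and 122, in falling order of time, and did not pass the adjusted test (limma adjusted p = 0.935, with -0.198 ± 0.065 log2 units for each hr, SE). Lama2, the alpha chain of muscle and vessel laminin, read 145, 184, 208 and 200.1. Lamb1 read 267, 273, 194 and 210.1 through one probe set and 584, 491, 389.5 and 667 through the other. The tested Lamc1 probe set read 214, 422.5, 369 and 503, a 2.35-fold range, lowest at 1 hr. The lowest array was 6 hr for Lama1, 4 hr for both Lamb1 probe sets and 1 hr for Lama2 and Lamc1. Col7a1, the anchoring fibril collagen, read 208, 172, 377 and 241. Col19a1 and Col26a1, 2 less studied collagens, read 196, 283, 422.5 and 356, and 258, 154.5, 259.7 and 322.

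Col18a1, a vessel wall collagen, had 5 probe sets that did not match. The tested one read 680.0, 256, 128 and 323.5, above all others at 1 hr and below all others at 4 hr. A dimmer one read 125.5 at 2 hr and another 140.4 at 4 hr, each with 58.4 or less on its other arrays. The remaining probe sets lay under the floor throughout, so no single course can be given for this gene.

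Of the other basement membrane genes below the filter, Lama5 read 199 at 4 hr and 176 at 6 hr by one probe set, with 86.6 or less before, and 77.8 or less by the other. Lama4, the laminin chain of vessel endothelium, was highest at 6 hr by both of its probe sets, at 142 and 124. Col15a1 and Lamb2 reached 95.2 and 119, and Lamb3 stayed under the floor. Among connective tissue genes below it, Col11a2 reached 194 at 2 hr, Col2a1 141 and Fbn2 126, both at 1 hr, and Col6a3 87.7. The transmembrane Col13a1 read 243 at 6 hr and 143 at 4 hr through one probe set, with 58.8 or less before. Col8a1 reached 120.2, and Col22a1 stayed under the floor.

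Integrin alpha subunits had the widest spread of the roles with 5 or more tested genes, with a median range of 2.26-fold beside 1.53-fold for all tested genes. The comparison was not matched for level. The brightest of these genes, Itgav (mean 1511), had a 1.8-fold range, and the others, with means of 127 to 338, had ranges of 1.98- to 2.58-fold. Itgav, the alpha subunit of vitronectin receptors, read 55.1, 202, 304 and 166 through one probe set, 3.02-fold lower at 1 hr than on the next lowest array, and 1659, 1598.5, 1793 and 994 through another, lowest at 6 hr. Itga7, a laminin receptor subunit, read 215, 228, 556 and 355, and 247, 295.5, 232 and 415.5, so that its peak was at 4 hr by one and at 6 hr by the other. Both Itga3 probe sets, for another laminin receptor subunit, were higher on the later arrays on average, at 110.5, 167, 157 and 177, and 211, 183, 362 and 297. Itgax, a leukocyte subunit, read 114, 208, 288 and 139.8. Itga2, a collagen receptor subunit, read 184, 81.3, 151 and 90.7. Itgam and Itga5 were under the floor on every array, while Itga4, Itga6, Itga8, Itgae and Itgal passed through no probe set.

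Among beta subunits, the shared partner Itgb1 read 953, 1394.5, 1000.5 and 676.5, with a second probe set, also an r_at one, at 402, 324, 303 and 263, both lowest at 6 hr. Both probe sets of Itgb5, a partner of Itgav, were lowest at 2 hr, at 1126.5, 767, 1043 and 1070.2, and 359, 244, 368 and 373. Itgb4, the beta subunit of a laminin receptor, read 223, 275, 115 and 165, a 2.4-fold range. Itgb7 read 187, 179.9, 255 and 262. Itgb2, the leukocyte beta subunit that microglia express, lay below the filter and read 147 at 1 hr, 86.7 at 2 hr and under the floor later. Itgb1bp1, an intracellular integrin-binding protein that the name rule also takes, had 3 tested probe sets, highest at 6, 4 and 1 hr.

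The tested MMPs were the membrane-bound Mmp14, Mmp16 and Mmp17. Mmp14, which activates other MMPs, read 780.2, 570.3, 474 and 652. Mmp17 read 492, 369.9, 472 and 489.6. Mmp16 read 291, 105 and 132.5 at 1, 2 and 6 hr and was under the floor at 4 hr. All 3 were highest at 1 hr, Mmp17 there close to its 6 hr value. Of those below the filter, Mmp12, the macrophage elastase, was highest at 1 hr by both probe sets (146.5 and 172), and the collagenase Mmp13 reached 60.6. TIMPs, their inhibitors, were split. Timp1 read 660.2, 656.5, 996 and 898, higher on both later arrays. Timp2 read 257, 331, 227 and 496 through its only tested probe set of 3. Timp3, which stays bound to matrix, read 985, 778, 663 and 649, highest at 1 hr and lowest at 6 hr.

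Adam23 had the narrowest range of the tested ADAM probe sets. It encodes a catalytically inactive neuronal ADAM that binds LGI proteins, and it read 475, 523, 534 and 597, a 1.26-fold range, and Adam11, another of this kind, read 424, 632, 599 and 551. Adam22 was under the floor on every array. Adam10, which sheds many neuronal surface proteins, read 407, 576.5, 373 and 459 through one probe set and 136, 140.1, 149 and 177 through the other, with opposite signs between earlier and later arrays. Adam15 read 131.0, 85.5, 144 and 149, Adam9 read 269, 230, 170 and 191, and Adam19 read 157, 192, 180 and 136.5. Adam28 had the widest range of the tested ADAM probe sets and read 449, 591, 738 and 801 in rising order of time, and limma's adjusted p for it was 0.972. Adam3 and Adam5, which are known from sperm, passed through 1 probe set each, at 293.5 to 423 and 1091 to 1584, while their other probe sets lay below the filter. These 2 and that of Adam28 are r_at probe sets too, which makes 5 among the tested members. Of the other tested member probe sets 53 carry the plain suffix at, 7 carry f_at, 3 g_at and 1 i_at. The tested Itgav probe sets are an i_at and an f_at one. Adam2, Adam4 and Adam7, also of the male reproductive tract, and Adamdec1 lay below the filter. So did Adam8, Adam12 and Adam17, the protease that releases tumour necrosis factor, at 170 and 168 on the 1 and 6 hr arrays and under the floor at 4 hr. Thbs3, a thrombospondin, read 258.5, 346.5, 319 and 479, and Thbs2 lay below the filter.

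Genes with several probe sets show how far the readings of 1 gene can differ. Whether such probe sets read different transcripts was not tested. Of the 107 genes 38 had more than 1 probe set, and in 18 of these some passed the filter and others did not. In 11 genes at least 2 passed. The sign of the difference between later and earlier arrays was shared in 5 of them (Itga3, Itga7, Itgb1, Itgb5, Lamb1) and not in 6 (Adam10, Bgn, Fbln1, Itgav, Itgb1bp1, Ncan). For Itgav the difference was 1.09 by one probe set and -0.29 by the other.

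**Figure D4:**
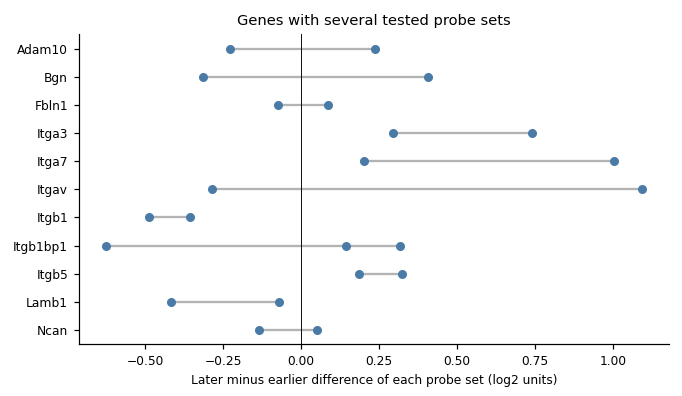
Difference of later (4 and 6 hr) from earlier (1 and 2 hr) arrays in log2 units (horizontal axis) for each tested probe set (points) of the 11 genes with more than 1. The points of 6 genes lie on both sides of 0, with the widest gap for Itgav (-0.29 and 1.09).

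Single arrays were then compared with the other 3. A probe set is said to stand apart, without a test, when 1 array differed from each of the others, in the same direction, by 1 log2 unit or more. Of 69 tested member probe sets 5 (7.25%) did so, beside 7.53% of all tested probe sets, a share near the background. Without the 1 hr array the count was 2. They are Vcan and one Itgav probe set, low at 1 hr, Col18a1, high at 1 hr and low at 4 hr, Mmp16, high at 1 hr, and Col12a1, high at 6 hr. Col12a1, a fibril-associated collagen, read 167, 127.5, 127.5 and 343, and its dimmer second probe set, at 187 at 6 hr and 80.3 or less elsewhere, stood apart on the same array.

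Without the filter 18 of 156 member probe sets (11.5%) stood apart, beside 9.56% of all 12422. On the 1 hr array 9 of 156 (5.77%), from 8 genes, stood above the other arrays, beside 2.01% of all probe sets. Col3a1, the fibrillar collagen of vessel walls and meninges, read 252 at 1 hr and 122 at 6 hr, and under the floor at 2 and 4 hr, through one probe set. A second read 120.0 at 1 hr and under the floor otherwise, and the third lay under the floor throughout. Mmp2, a gelatinase of vessels and fibroblasts, read 137 at 1 hr and under the floor later, and its other probe set read 109 at 1 hr and under the floor later, just short of a 1 log2 unit gap at 0.99. Mmp9, the inducible gelatinase of neurons and leukocytes, read 178 at 1 hr and under the floor later, while its second probe set lay under the floor on all arrays.

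The others high at 1 hr were dim as well. Itgb3, the partner of Itgav, read 129.8 and under the floor later. Lama3 read 154 and 65.8 or less, and Itgb2l read 169 and 79.0 or less. On the 1 hr array summed meningeal fibroblast markers (3206) and mural markers (1129) were at their lowest. Summed endothelial markers (3024, against 2459 to 2977) and blood markers (4082, against 2101 to 3402, 2 of 3 passed) were at their highest there. Of the 10 endothelial markers 4 were highest at 1 hr. The blood sum was mostly Hba-a1 (3907 at 1 hr), while Alas2 was highest at 2 hr and Slc4a1 at 6 hr. The microglial marker Aif1 read 185 at 1 hr and under the floor on the other arrays, though the other microglial markers did not stand apart there. The part of these in the high readings was not tested.

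On the other arrays fewer member probe sets stood above. At 6 hr there were 4 of 156 (2.56%), beside 1.38% of all probe sets. There were 2 (1.28%, beside 1.58%) at 4 hr and 1 (0.641%, beside 0.419%) at 2 hr. At 6 hr these were Col5a2 (173.5, with 70.3 or less elsewhere), Col10a1 (272, with 86.4 or less elsewhere) and both Col12a1 probe sets. All are chains of connective tissue collagens, and of these probe sets only 1, of Col12a1, passed the filter. At 4 hr they were Mmp11, at 212 with 101 or less elsewhere, and a Col18a1 probe set. At 2 hr it was another Col18a1 probe set. Just short of the threshold were a Lama4 probe set (0.96 log2 units higher at 6 hr than on the next array), Adam17 (0.96 lower at 4 hr) and Col11a1 (0.95 higher at 1 hr), and just past it Col12a1 and Col3a1 (1.04).

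**Figure D5:**
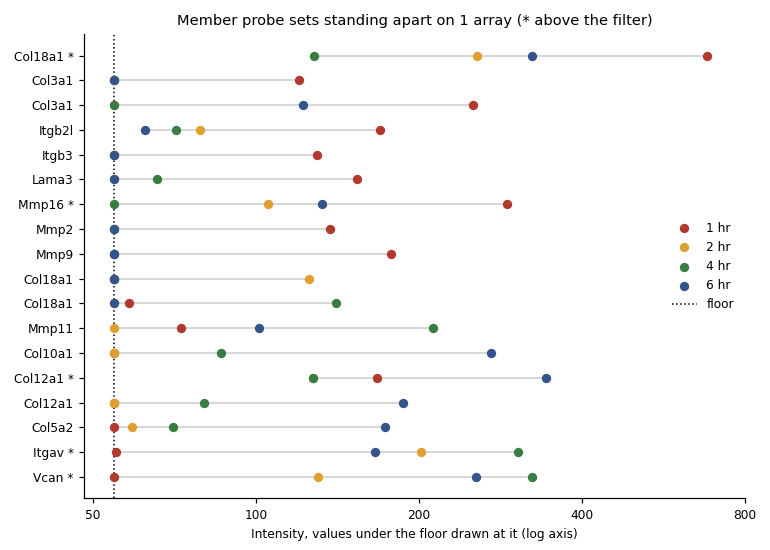
Intensity (horizontal axis, log scale) on each array (colours) of the 18 member probe sets that stood at least 1 log2 unit above or below every other array, with values under the floor of 54.7 drawn at the dotted line and tested probe sets starred. Red points (1 hr) lie far to the right in 9 of the 18, and in most of these the other arrays are at or near the floor.

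Other genes of matrix biology, from lists outside the name rule, were followed in the same way, and none of their tested members passed limma's adjusted test. Among further brain matrix genes 4 of 5 had a negative difference of later from earlier arrays (median -0.12 log2 units, and between -0.25 and -0.02 with an array left out), with Ptprz1, a receptor phosphatase that binds tenascins, at -0.35 and Spock1 at -0.21, and Reln at -0.04 and Spock2 at 0.01. Of further connective tissue genes 6 of 16 passed the filter, with Mgp at 0.64, Matn2 at 0.39, Matn4 at -0.075 and Mfap5 at -0.745. Collagen processing genes were higher later in 6 of 8 cases (median 0.17), with Bmp1, which trims procollagen, at 0.84 and its enhancer Pcolce at 0.70, and P4ha1, a proline hydroxylase, at -0.405 and Crtap at -0.13. Without the 2 hr array that median was -0.01. The median of the further connective tissue genes, 0.19, was -0.10 without the 1 hr array and 0.04 without the 2 hr array.

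Further basement membrane genes were few, with Agrn at 0.18, Dag1 at -0.11 and Hspg2 at -0.76. In the plasminogen system, which activates several MMPs, the differences were 0.78 for Serpinf2 and 0.51 for Plau, and -0.18 for Plg and -0.15 for Serpini1, an inhibitor of neuronal tissue plasminogen activator. The median of the plasminogen list, -0.14, was 0.51 without the 1 hr array, 0.48 without 4 hr and 0.065 without 6 hr, and that of the further basement membrane genes, -0.11, was 0.10 without 2 hr. The cytoplasmic partners of integrins were split, 6 of 11 higher later (median 0.07, and -0.05 without the 1 hr array). Pxn, the adhesion adaptor paxillin, differed by 1.125 and read 57.5, 264, 218 and 332, low at 1 hr as was the Itgav probe set that stood apart. Vcl was at 0.43, and Src at -0.60 and Lims1 at -0.56.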

How the data were processed

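Expression was measured on 4 single-channel oligonucleotide arrays. Per the deposited values, the authors gave 1 linear intensity for each of 12488 probe sets per array. The trimmed mean (2% at each end) was 500.3 on every array, so arrays had been scaled before deposit, which hides any shift common to most genes. The probe-level summary and its software are not given in the sources used here.

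Probe sets were named from the platform annotation, and 66 controls were left out. Of the other 12422 probe sets, 10833 had 1 symbol, 396 several and 1193 none. A line over hours was fitted with limma 3.58.1 in R 4.3.3 (lmFit, eBayes, 2 residual degrees of freedom) to the 7453 probe sets above the filter, with Benjamini-Hochberg adjustment at 0.05. The fit was also run on simulated straight lines with scatter drawn from limma's own variance prior. That checked the slope estimates and does not show what 4 arrays without replicates can detect. List summaries used the tested probe set of highest mean per gene. The number of arrays limits the precision.

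The members and gene lists were chosen with earlier results of these data known. Every gene of the rule could be named. All 4 values are given for the 8 fully named genes, for tested probe sets of widest and narrowest range in a role, for those standing apart and for genes with several tested probe sets. In lists outside the rule the 2 largest differences each way are given. Further members were given values after these were seen. Alternatives were other scalings, floors, filters, time scales, variance models and probe set choices, and each array left out. The shocked mice were not analysed here.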

Additional observations from a re-analysis of the deposited data

How the results depend on the processing

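The count of members called in the trend test was 0 in all 15 alternatives run, from other scalings, floors and filters to each array left out. The gap between brain matrix and connective tissue medians ran from -0.14 to 0.12 log2 units over the 12 alternatives, so its sign was not stable. The SD of 0.25 log2 units given above belongs to the gap between the lists' mean levels on each array. That is a different measure, so it does not give the spread of the gap between medians. The count of tested members standing apart on an array, 5, became 18 with no filter and 1 with a filter at the 60th percentile. With an array left out it ran from 2, without the 1 hr array, to 7. The 13 genes under the floor on every array became 3 with the floor at the 10th percentile and 29 with it at the 40th, and between 14 and 20 with an array left out, highest without the 1 hr array. Without the 6 hr array 10 of 69 member probe sets had an unadjusted p under 0.05 (14.5%, beside 5.58% of all), and 0 after adjustment. Each group has 1 array, so no spread at a time is known, and dim probe sets near the floor carry little information.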
